A study of Mus musculus with 8 samples.

Results

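The endothelin, angiotensin and natriuretic peptide systems, which set vascular tone, were followed through 10 genes in mouse RNA sequencing libraries of 2 groups, BMPR2 DELX (4 libraries) and its ROSA control (4 libraries). They are 10 of the 49671 gene rows of each file, taken by name: the endothelin genes Edn1, Ece1, Ednra and Ednrb, the angiotensin genes Agt, Ace, Agtr1a and Agtr2, and the natriuretic peptide receptor genes Npr1 and Npr3. The list was chosen by function and with the counts of this same comparison of BMPR2 DELX with ROSA in view, Ednra in particular, so the values below describe these genes and support nothing further. The labels give mouse adipocytes as the source of polyadenylated RNA in both groups. They give no age, sex, strain, driver, allele structure or agent for either group beyond the group name, and do not say whether the libraries came from separate animals, so the spread between libraries may be partly technical.

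Endothelin-1, the product of Edn1, is cut from a larger precursor by endothelin-converting enzyme 1 (Ece1) and acts on the receptors ETA (Ednra), which contracts smooth muscle, and ETB (Ednrb), which in endothelium releases nitric oxide and removes the peptide. Angiotensinogen (Agt) is cleaved by renin and then by angiotensin-converting enzyme (Ace) to angiotensin II, which acts on AT1 (Agtr1a) and AT2 (Agtr2) receptors. Npr1 is the guanylyl cyclase receptor for atrial and B-type natriuretic peptides, and Npr3 is the receptor that clears natriuretic peptides. BMPR2 is the type II BMP receptor mutated in heritable pulmonary arterial hypertension, a disease in which endothelin receptor blockers are used.

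Each library held between 28799445 and 43684785 counts on genes. Levels are counts per 1000000 counts (CPM) scaled by trimmed mean of M values (TMM) factors, given as mean ± SD with n = 4 per group, and a count of 0 allows up to 3 counts, or 0.0687 to 0.104 CPM before scaling. Bmpr2 stood at 211 ± 17.6 CPM in the BMPR2 DELX libraries against 197 ± 17.0 CPM in the controls, with overlap, and whole-gene counts cannot tell a shortened transcript from a full one. Of 10 adipocyte markers, 7 were too low to test: no library had more than 3 counts of Lep, Plin1, Cidec, Cfd or Retn, more than 6 of Adipoq or more than 9 of Slc2a4. The other 3 were expressed, Lpl at 119 to 246 CPM, Fabp4 at 33.8 to 74.4 CPM and Pparg at 12.4 to 26.3 CPM, so most of the genes that define mature adipocytes were near 0 and a few were not. Smooth muscle genes were abundant. Summed over 17 mural and smooth muscle markers, they had 9982 to 13532 CPM in BMPR2 DELX libraries and 11591 to 15357 in controls. Most of these sums was Acta2 (means of 6014 and 7134 CPM) and Tagln (3032 and 3583 CPM), while Myocd had 2.86 and 4.21 CPM. Pericyte genes of the list were uneven. Kcnj8, Higd1b, Abcc9 and Rgs5 had at most 3, 2, 4 and 14 counts. Pdgfrb (means of 618 and 509 CPM), Mcam (75.4 and 129), Cspg4 (56.5 and 116) and Notch3 (14.7 and 7.55) were expressed. Endothelial genes were also present, and 18 of their markers summed to 869 to 2894 CPM in BMPR2 DELX libraries and 1474 to 2953 in controls. In such mixed bulk samples, fewer cells of a type and less RNA per cell cannot be told apart.

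The sequences before the start sites are shown for Ednra, which passed in the comparison below, and for Edn1, the gene of its ligand, which did not. Both are the 250 bases before the RefSeq start site (GRCm38.p6), at chr8:77724453-77724702 on the minus strand for Ednra and chr13:42301226-42301475 on the plus strand for Edn1. Capitals mark matches, on either strand, to the SMAD half-site CAGAC and to the TEAD motif GGAATG.
Ednra: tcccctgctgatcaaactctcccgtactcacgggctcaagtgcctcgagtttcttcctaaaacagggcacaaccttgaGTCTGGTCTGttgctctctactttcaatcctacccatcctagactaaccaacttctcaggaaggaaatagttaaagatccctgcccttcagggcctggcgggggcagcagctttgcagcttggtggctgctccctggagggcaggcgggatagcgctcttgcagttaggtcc
Edn1: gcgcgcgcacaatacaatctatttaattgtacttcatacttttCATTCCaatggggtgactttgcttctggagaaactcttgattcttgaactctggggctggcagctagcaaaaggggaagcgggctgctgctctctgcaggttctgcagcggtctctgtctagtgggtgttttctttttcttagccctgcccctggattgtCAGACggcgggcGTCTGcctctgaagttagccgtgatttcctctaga
Ednra held 2 adjacent SMAD half-sites in the same orientation, at bases -172 to -168 and -167 to -163 before the start site. Edn1 held 2 in opposite orientations, at -47 to -43 and -35 to -31, and 1 TEAD match at -207 to -202. At least 1 CAGAC was found in 42.2% of 32817 RefSeq windows of this length and 2 or more in 11.7%, and GGAATG was found in 12.6%. No match overlapped that of another motif in these windows. The other motifs searched were GGCGCC (9.59% of windows), GATAA (22.6%), TGANTCA (6.75%) and TATAAA (12.4%). None of these 4 matched in either window, which says only that those letters are absent from it. RefSeq windows were matched for 9 of the 10 genes, all but Agtr1a. CAGAC also matched in windows of Ednrb and Ece1, neither of which passed in the main comparison.

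Of the 10 genes, 9 had enough counts to be tested and Agtr2 did not. In the comparison of BMPR2 DELX with ROSA by the edgeR quasi-likelihood test over 14887 genes, with Benjamini-Hochberg adjustment over all of them, Ednra was the 1 gene of the 9 called higher at an adjusted p below 0.05. None (0) was called lower, and 0 had a negative change at an unadjusted p below 0.05 in edgeR or a lower call in DESeq2 or limma voom. Of all genes tested 9.10% were called, 3.96% higher and 5.15% lower, or 589 and 766 genes. With upper-quartile factors the split over all genes was 734 higher and 606 lower, so 54.8% of calls were higher against 43.5% with TMM factors. Without any fixed threshold, 8 of the 9 log2 fold changes were positive, with a median of 0.24 against 0.0045 for all genes tested. Ednra was also the 1 gene of the 9 whose groups did not overlap, which held for 18.0% of all genes tested, 8.32% with BMPR2 DELX higher and 9.65% with it lower. Because the genes were chosen with this contrast known, nothing is read from these counts.

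**Figure D1:**
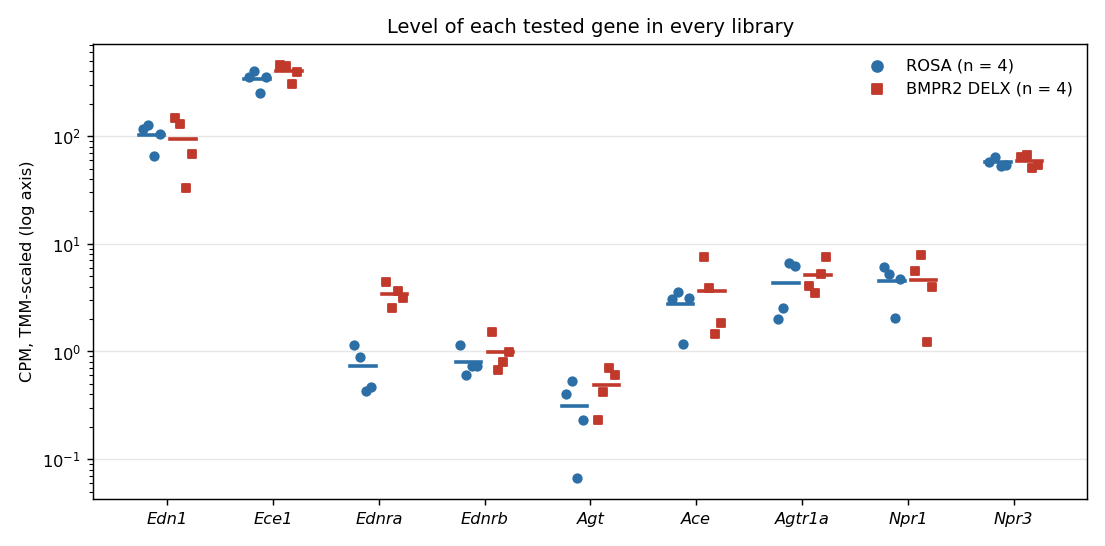
TMM-scaled CPM on a log axis for the 9 tested genes, with 1 point per library and the group mean as a bar. The groups were apart for Ednra, where all 4 BMPR2 DELX libraries lay at 2.54 CPM or above and all 4 ROSA libraries at 1.15 CPM or below, and overlapped for the other 8 genes.

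Ednra (ENSMUSG00000031616, GRCm38 chromosome 8, 77663031 to 77724464, minus strand), the receptor through which endothelin-1 contracts smooth muscle, was a low transcript that was higher in BMPR2 DELX. It had 134, 90, 124 and 141 counts in BMPR2 DELX 1 to 4, and 37, 37, 13 and 16 counts in ROSA 1 to 4. After scaling these were 4.39, 2.54, 3.64 and 3.15 CPM against 1.15, 0.898, 0.432 and 0.467 CPM. Every BMPR2 DELX library was above every ROSA library, and ROSA 1 and ROSA 2 were the higher pair of controls. The means were 3.43 ± 0.781 and 0.737 ± 0.347 CPM, a 4.60-fold difference in the fit. The log2 fold change was 2.20 ± 0.32 (SE, n = 4 per group, edgeR adjusted p 0.0050), which placed Ednra at rank 126 by p and rank 20 by positive fold among all genes tested. Without ROSA 1 and ROSA 2 the log2 fold change was 2.93 ± 0.31. In the 8 fits that left out 1 library it ran from 2.03 to 2.49 and passed in all 8. Macrophage markers, summed over 10 genes, narrowly separated the groups in the same direction, at 37.7 to 70.7 CPM in BMPR2 DELX against 25.1 to 36.9 CPM in ROSA. Of the 5 tested, 5 changes were positive, with a median of 0.72, and edgeR called 1 higher (Cd68). DESeq2 called 3 of the 5 higher and limma voom 1. Lyz2 had 11.5 ± 6.11 against 4.06 ± 1.65 CPM, with overlap (edgeR adjusted p 0.074). Ptprc had at most 18 counts in any library. The largest part of the macrophage sum was Csf1r, which overlapped, at 21.1 to 38.1 against 19.5 to 26.6 CPM, and did not pass (edgeR adjusted p 0.21). The adipocyte marker sum also separated the groups in this direction, at 252 to 308 against 201 to 234 CPM. Most of it was Lpl, at 210 ± 34.5 against 140 ± 17.7 CPM, the 1 of 3 tested that edgeR called higher. Pparg had 21.8 ± 3.49 against 16.1 ± 2.67 CPM, with overlap (edgeR adjusted p 0.086), and Fabp4 had 49.9 ± 11.4 against 61.0 ± 11.9 CPM. DESeq2 called 2 of the 3 higher and limma voom 1. Fibroblast marker sums overlapped, at 16909 to 20568 against 16235 to 19444 CPM, with 9 of 11 changes positive and a median of 0.28. Of the 11 tested, 2 were called higher, Col3a1 (1.25 ± 0.12 on the log2 scale) and Dpp4 (2.06 ± 0.53). Col3a1 had 1146 ± 185 against 481 ± 49.2 CPM. Dpp4 was near the floor, at 0.439 ± 0.0910 against 0.100 ± 0.0834 CPM on 0 to 17 counts per library. Epithelial marker sums overlapped as well, at 22.9 to 56.7 against 32.8 to 49.1 CPM, with at most 5 and 6 counts of Epcam and Cdh1. Of the 7 tested, 5 changes were positive, with a median of 1.30. Only Pax8 was called higher (3.38 ± 0.87), with overlap, at 0.290 to 4.49 against 0.0584 to 0.315 CPM. Krt19, the most abundant of the list in ROSA, was lower without overlap, at 12.1 ± 5.85 against 26.4 ± 3.65 CPM (-1.12 ± 0.30, edgeR adjusted p 0.052). Among these markers limma voom called 0 higher and 1 lower, and DESeq2 2 higher and 1 lower. For comparison with the calls in these lists, edgeR called 3.96% of all genes tested higher and 5.15% lower. The part of any of these marker lists in the level of Ednra was not tested. An antisense gene, 4933431K23Rik, shares 91 exonic bases with Ednra, and the strand column not used for testing held 8 Ednra counts against 592 in the column used.

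Ednrb (ENSMUSG00000022122, chromosome 14, 103814625 to 103844402), the second endothelin receptor, was also a low transcript, and its groups overlapped. Its levels were 1.51, 0.677, 0.793 and 0.983 CPM in BMPR2 DELX 1 to 4 and 1.15, 0.607, 0.732 and 0.730 CPM in ROSA 1 to 4. BMPR2 DELX 1 and ROSA 1 were the highest of their groups. The difference was 0.30 ± 0.31 on the log2 scale (edgeR adjusted p 0.58), on 22 to 46 counts per library. Per kilobase of annotated exon, Ednra had 0.626 ± 0.143 CPM and Ednrb 0.232 ± 0.0859 CPM in BMPR2 DELX. In ROSA the same per-length levels were 0.135 ± 0.0634 for Ednra and 0.189 ± 0.0557 for Ednrb. The ratio of Ednra to Ednrb per length was 2.27, 2.92, 3.58 and 2.496 in BMPR2 DELX 1 to 4, and 0.779, 1.15, 0.460 and 0.499 in ROSA 1 to 4. By this measure Ednra exceeded Ednrb in all 4 BMPR2 DELX libraries and in 1 of 4 ROSA libraries, ROSA 2. The ROSA ratios rest on 13 to 37 Ednra counts per library. They also depend on the length used, here all annotated exons, 5476 bases for Ednra, whose longest transcript has 3625 bases. The side of 1 on which a ROSA library falls is therefore not settled.

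**Figure D2:**
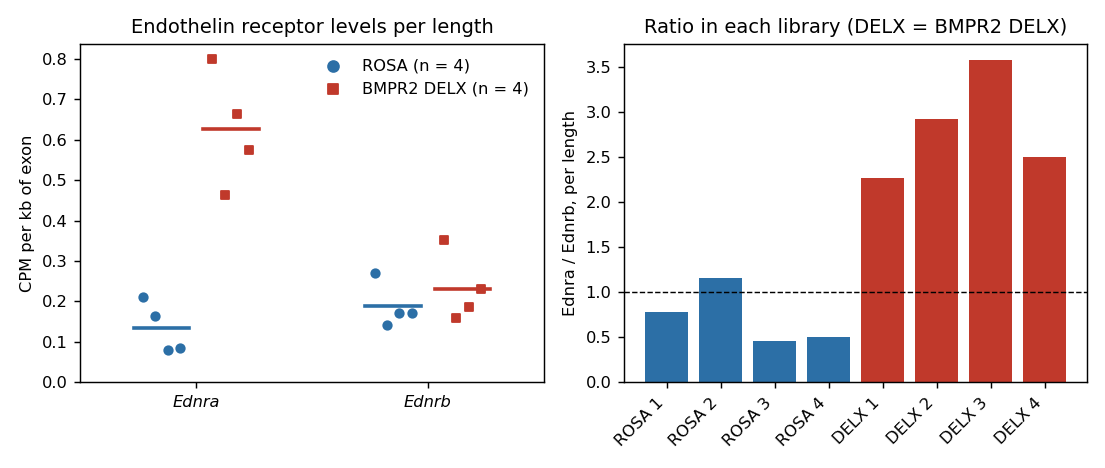
Left, CPM per kilobase of exon of both endothelin receptor genes, with 1 point per library and the group mean as a bar; right, the ratio of Ednra to Ednrb per length in each library, with a dashed line at 1. The ratio was 2.27 to 3.58 in BMPR2 DELX and 0.460 to 1.15 in ROSA.

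The ligand and its converting enzyme were the most abundant of the 10 genes. Edn1 (ENSMUSG00000021367, chromosome 13, 42301476 to 42307990) had 146, 130, 33.2 and 67.8 CPM in BMPR2 DELX 1 to 4 and 117, 127, 65.1 and 105 CPM in ROSA 1 to 4. BMPR2 DELX 3 was the lowest library, the groups overlapped widely, and the log2 fold change was -0.14 ± 0.44 (edgeR adjusted p 0.88). That estimate was 0.15 without BMPR2 DELX 3 and 0.16 without ROSA 1 and ROSA 2, so it has no settled sign. Ece1 (ENSMUSG00000057530, chromosome 4, 137862237 to 137965229) had 461, 448, 304 and 391 CPM in BMPR2 DELX against 356, 402, 251 and 355 CPM in ROSA. Library 3 was again the lowest of each group. Its log2 fold change was 0.23 ± 0.16 (adjusted p 0.40).

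The angiotensin genes were low, and none of those tested passed. Agt (ENSMUSG00000031980, chromosome 8, 124556534 to 124569706), the angiotensin precursor, had 0.229, 0.423, 0.705 and 0.603 CPM in BMPR2 DELX and 0.404, 0.534, 0.0665 and 0.233 CPM in ROSA, on 2 to 27 counts per library. Its log2 fold change was 0.63 ± 0.51 (edgeR adjusted p 0.46), a precision that leaves little to be said of its level. Ace (ENSMUSG00000020681, chromosome 11, 105967945 to 105989964), the peptidase that makes angiotensin II, had 7.53, 3.86, 1.44 and 1.83 CPM in BMPR2 DELX and 3.05, 3.57, 1.16 and 3.15 CPM in ROSA. BMPR2 DELX 1 was the highest library, BMPR2 DELX 2 was just above the highest control, and the other 2 were among the lowest. Its log2 fold change of 0.40 ± 0.54 (adjusted p 0.68) was -0.20 without that library.

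Agtr1a (ENSMUSG00000049115, chromosome 13, 30336441 to 30382867), the main AT1 receptor gene of rodents, differed more among libraries than between groups. It had 4.09, 3.52, 5.25 and 7.51 CPM in BMPR2 DELX and 1.99, 2.55, 6.68 and 6.19 CPM in ROSA. ROSA 1 and ROSA 2 lay below all BMPR2 DELX libraries, and ROSA 3 and ROSA 4 lay above 3 of them. The log2 fold change was 0.24 ± 0.41 (edgeR adjusted p 0.75), and -0.32 ± 0.28 without ROSA 1 and ROSA 2. Its transcript aligned to that of the paralog Agtr1b at 90.2% identity over 1134 bases, and Agtr1b had at most 7 counts in any library. Agtr2 (ENSMUSG00000068122, chromosome X, 21484544 to 21489164), the AT2 receptor gene, had 1 count in BMPR2 DELX 1, 1 in ROSA 4 and 0 in the other 6 libraries, so it was not detectable at this depth.

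Both natriuretic peptide receptor genes had nearly equal group means. Npr1 (ENSMUSG00000027931, chromosome 3, 90450591 to 90465866) had 5.56, 7.87, 1.23 and 3.93 CPM in BMPR2 DELX and 6.12, 5.27, 2.06 and 4.73 CPM in ROSA. The lowest library of each group was again library 3, and the log2 fold change was 0.03 ± 0.51 (edgeR adjusted p 0.98). Npr3 (ENSMUSG00000022206, chromosome 15, 11839896 to 11907287), the clearance receptor, was the most even of the 9, with 64.5, 66.5, 50.8 and 53.7 CPM against 57.7, 64.1, 52.3 and 54.3 CPM. Its log2 fold change was 0.04 ± 0.10 (adjusted p 0.82).

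Per kilobase of exon, the order of mean levels in both groups began Ece1, Edn1, Npr3, Agtr1a, Npr1 and Ace. In BMPR2 DELX it went on with Ednra, Agt, Ednrb and Agtr2, and in ROSA with Ednrb, Agt, Ednra and Agtr2. Ece1 stood at 75.7 ± 13.5 and 64.4 ± 12.1 CPM per kilobase in BMPR2 DELX and ROSA, and Edn1 at 44.1 ± 24.8 and 48.4 ± 12.7, with overlapping libraries. Npr3 was clear of both neighbours in each group, at 6.27 ± 0.8287 and 6.08 ± 0.553. Agtr1a, Npr1 and Ace overlapped from one to the next, between 1.83 and 0.693 in BMPR2 DELX and between 1.56 and 0.517 in ROSA. Ednra overlapped Ace but not Agt in BMPR2 DELX, and overlapped Agt in ROSA.

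Several of the 9 tested genes were low in the libraries in which endothelial markers were low, and the part of endothelial cells in these levels was not tested. Edn1, Ece1, Ace, Npr1 and Npr3 were each lowest in BMPR2 DELX 3 among the BMPR2 DELX libraries and in ROSA 3 among the ROSA libraries, 5 of 9. The same held for 14 of 17 tested endothelial markers and for 8.21% of all genes tested. The marker sum was 2756, 2894, 869 and 1665 CPM in BMPR2 DELX 1 to 4 and 2556, 2953, 1474 and 2243 CPM in ROSA 1 to 4. Its order within each group was the order of Npr3. Within the endothelial list Cldn5 was at 0 in BMPR2 DELX 3 and at most 1.11 CPM elsewhere, and 0 of the 17 tested markers were called by edgeR (1 at an unadjusted p below 0.05, lower), with a median log2 fold change of 0.09. DESeq2 and limma voom each called 1 of the 17 lower, Flt1. DESeq2 also called Cldn5, which was too low for the edgeR test, higher (adjusted p 0.023). The shares called by edgeR over all genes tested were 3.96% higher and 5.15% lower. Ednra was lowest in ROSA 3 among the ROSA libraries, as were Edn1, Ece1, Ace, Npr1 and Npr3. Its lowest BMPR2 DELX library was BMPR2 DELX 2. With the endothelial score as a term of the model the log2 fold change of Ednra was 2.24 ± 0.32 (edgeR adjusted p 0.0040). In that fit Ece1 also passed, at 0.29 ± 0.07 (adjusted p 0.033), and the other 7 genes did not.

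**Figure D3:**
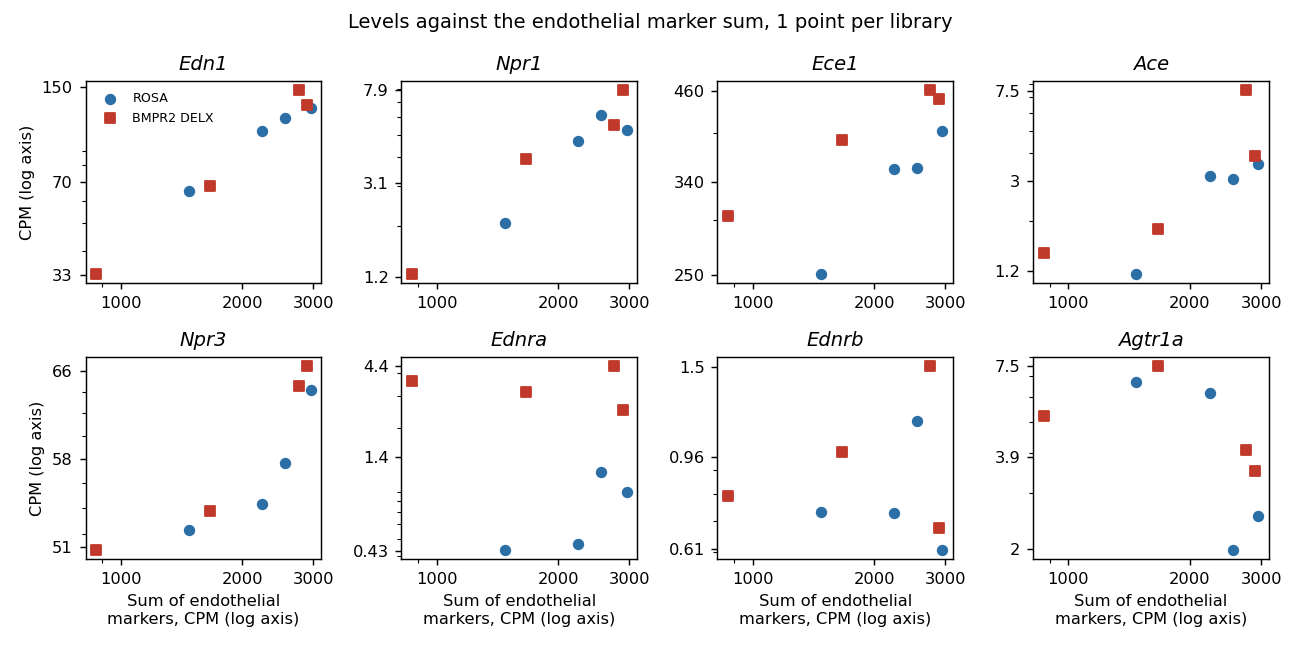
CPM of 8 of the genes against the summed CPM of 18 endothelial markers, both on log axes, with 1 point per library. Edn1, Npr1, Ece1, Ace and Npr3 were lowest where the marker sum was lowest in each group, with 869 CPM for BMPR2 DELX 3 and 1474 CPM for ROSA 3.

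The rest of the 3 pathways was read from 29 other genes, of which 16 were tested, 2 were higher, 2 were lower and 12 did not pass. Their median log2 fold change was -0.03. Of all genes tested, 3.96% were called higher and 5.15% lower. A pair of aminopeptidases of angiotensin breakdown rose. Anpep, aminopeptidase N, had 4.81, 5.02, 4.96 and 5.68 CPM in BMPR2 DELX and 1.96, 1.53, 2.19 and 1.52 CPM in ROSA, a log2 fold change of 1.51 ± 0.16 (2.85-fold, edgeR adjusted p 0.0018). Enpep, aminopeptidase A, which trims angiotensin II to angiotensin III, had 2.91, 3.47, 3.52 and 2.30 CPM against 1.27, 0.898, 1.30 and 0.934 CPM. No library of one group reached the other for either gene. The log2 fold change of Enpep was 1.47 ± 0.21 (2.78-fold, adjusted p 0.0050), and 1.47 with an adjusted p of 0.052 without ROSA 1 and ROSA 2. Both passed in each of the 8 fits without 1 library.

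Nppb, the gene of B-type natriuretic peptide, a ligand of Npr1, fell. It had 2.85, 3.27, 2.94 and 4.49 CPM in BMPR2 DELX against 8.48, 12.4, 7.68 and 8.06 CPM in ROSA, with no overlap between the groups. The log2 fold change was -1.43 ± 0.20, or 2.69-fold lower (edgeR adjusted p 0.0043), and it passed in each fit without 1 library. Lnpep, the insulin-regulated aminopeptidase that binds angiotensin IV, was called lower at the edge of the threshold (-0.32 ± 0.09, adjusted p 0.0497), with overlapping libraries. That call was lost in 7 of the 8 fits without 1 library, all but the one without ROSA 4.

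Among genes that did not pass, Ecel1, an endothelin-converting enzyme-like peptidase, had 1.26 ± 0.497 against 0.589 ± 0.113 CPM (1.09 ± 0.31, edgeR adjusted p 0.058). Its groups did not overlap, and it passed in 3 of 18 alternative settings. Ece2, the second converting enzyme, had a log2 fold change of 0.21 ± 0.14 and Mme, neprilysin, one of -0.35 ± 0.45. The prorenin receptor gene Atp6ap2 had 80.7 ± 9.07 against 98.2 ± 4.33 CPM (-0.28 ± 0.08, edgeR adjusted p 0.060). The groups did not overlap for Atp6ap2 either, and it passed in 2 of 19 alternative settings. Npr2, the receptor for C-type natriuretic peptide, had 67.4 ± 6.16 against 57.9 ± 4.33 CPM (0.22 ± 0.08, adjusted p 0.12), and the convertase Furin had a log2 fold change of -0.08 ± 0.08. The renin gene Ren1 and the receptor gene Mas1 had at most 1 and 2 counts per library.

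**Figure D4:**
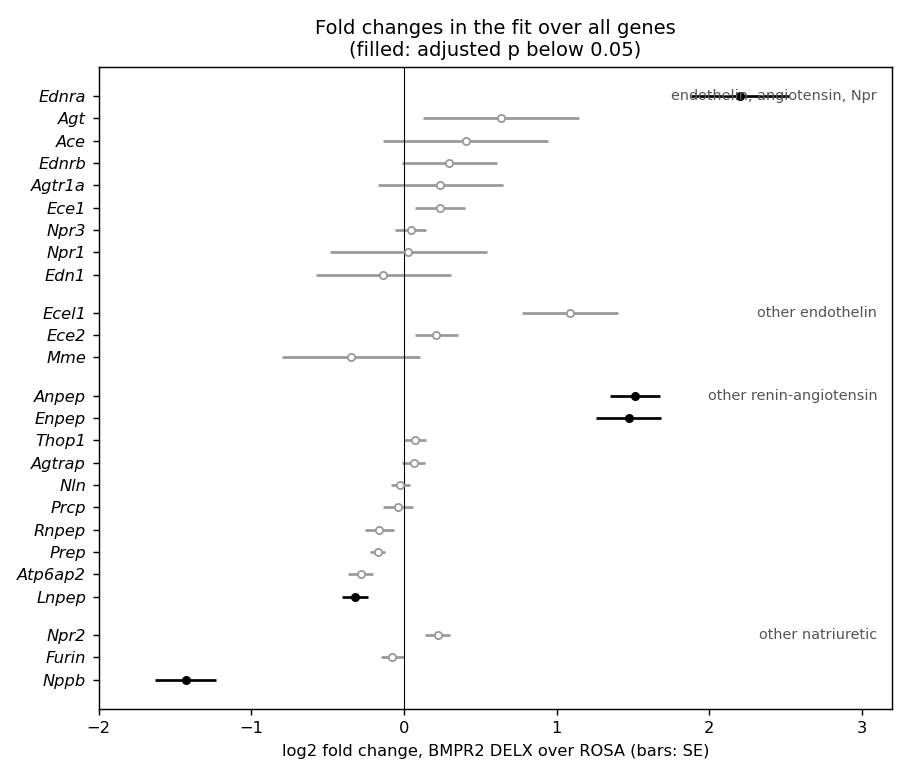
Differences between the groups (log2 fold change, positive where BMPR2 DELX is higher) with SE for the 9 tested genes and 16 tested genes of the same pathways, filled where the adjusted p was below 0.05. Ednra at 2.20, Anpep at 1.51 and Enpep at 1.47 lie to the right, and Nppb at -1.43 to the left.

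Other vasoactive peptides and their receptors made a list of 28 genes, of which 17 were tested. None (0) was higher in edgeR, DESeq2 or limma voom, or at an unadjusted p below 0.05 in edgeR, 4 were lower in edgeR and 13 did not pass, with 14 negative log2 fold changes and a median of -0.51 against 0.0045 for all genes tested. Over all genes tested, edgeR called 3.96% higher and 5.15% lower. The vasopressin V1a receptor gene Avpr1a had 20.8, 16.5, 27.2 and 24.6 CPM in BMPR2 DELX and 39.3, 35.1, 39.7 and 38.1 CPM in ROSA. It fell by 0.77 on the log2 scale (SE 0.14, edgeR adjusted p 0.011) and passed in each fit without 1 library, but had an adjusted p of 0.083 without ROSA 1 and ROSA 2. The bradykinin B2 receptor gene Bdkrb2 had 5.66, 6.06, 5.25 and 3.64 CPM against 19.1, 25.5, 8.21 and 8.55 CPM. ROSA 1 and ROSA 2 were well above the other controls, and its log2 fold change of -1.58 ± 0.39 was -0.69 (adjusted p 0.15) without them. The neuropeptide Y receptor gene Npy1r (-0.997 ± 0.238) and the PACAP receptor gene Adcyap1r1 (-0.97 ± 0.24) were also lower. Bdkrb2, Npy1r and Adcyap1r1 each lost the call in 6 of 8 fits without 1 library, and all 3 lost it without ROSA 1 and ROSA 2.

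Of 28 tested G proteins, phospholipases and regulators that act behind these receptors, 2 were lower, 0 were higher (1 at an unadjusted p below 0.05 in edgeR, 1 called by DESeq2, 0 by limma voom) and 26 did not pass, with a median log2 fold change of -0.07. The edgeR shares over all genes tested were 3.96% higher and 5.15% lower. Rgs16, a GTPase activator that shortens signalling by Gi and Gq, had 109, 100.5, 73.5 and 86.3 CPM in BMPR2 DELX and 310, 311, 204 and 186 CPM in ROSA. All BMPR2 DELX libraries were below all ROSA libraries, and ROSA 1 and ROSA 2 were the higher controls. On the log2 scale it changed by -1.45 ± 0.20 (2.74-fold lower, edgeR adjusted p 0.0050), and -1.06 (adjusted p 0.024) without ROSA 1 and ROSA 2. The inhibitory G protein gene Gnai1 fell by 0.40 (SE 0.11, adjusted p 0.044), a call lost in 6 of 8 fits without 1 library. The arrestin gene Arrb2 had a log2 fold change of 0.41 ± 0.13 (edgeR adjusted p 0.082).

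**Figure D5:**
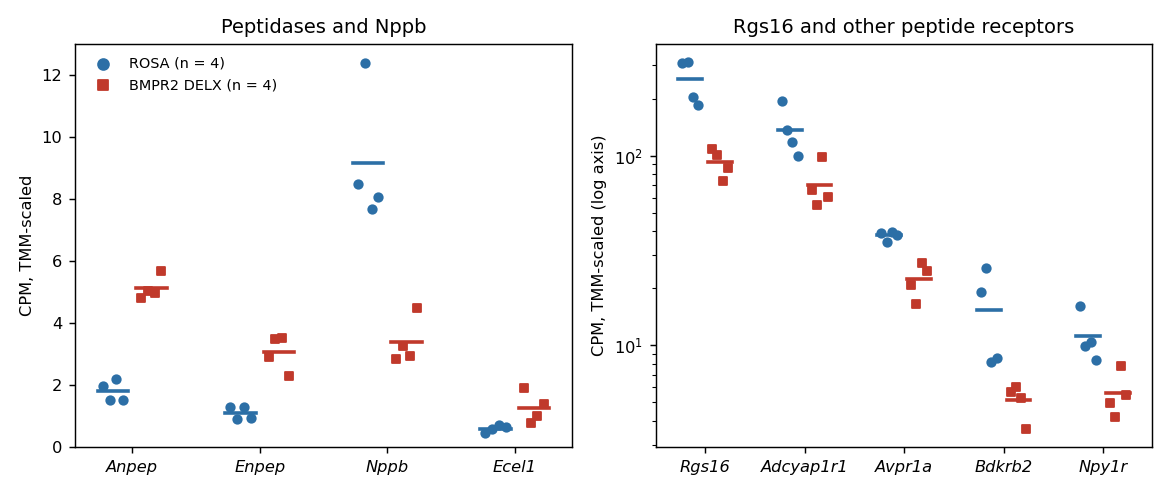
TMM-scaled CPM per library, with group means as bars, of 2 angiotensin-cleaving aminopeptidases, Nppb and Ecel1 on a linear axis (left) and of Rgs16 and 4 peptide receptors on a log axis (right). Anpep lay at 4.81 CPM or above in BMPR2 DELX and at 2.19 CPM or below in ROSA, while Nppb lay at 4.49 CPM or below and 7.68 CPM or above.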

How the data were processed

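The authors deposited raw counts per Ensembl gene, 1 file per library; STAR 2.5.2b, HTSeq and GRCm38 are named in the submitters' processing notes, with no role or order. The annotation release is not given in the sources used here. Lines that name no gene (14.7% to 22.0% of reads) were left out. The opposite-strand column, with 93.4% of strand-assigned counts, was used. Symbols, positions and exon lengths came from GENCODE M21 (49412 of 49671 IDs matched), and 1 older symbol was matched through RefSeq synonyms.

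Genes were kept with filterByExpr, scaled with TMM and tested in R 4.3.3 with edgeR 4.0.16 (quasi-likelihood, robust dispersions), with group as the only term. A gene was called where its p, Benjamini-Hochberg adjusted, was under 0.05. The SE is the log2 fold change divided by the square root of F. CPM per kilobase uses all annotated exons. The endothelial score is the mean log2 CPM (prior count 2) of the tested markers. The model was tested on simulated data. Transcripts were compared by blastn 2.17.0 at 90% identity or more. Figures used matplotlib 3.10.9. Replicate libraries differed well beyond sampling noise (chi-square per degree of freedom 28.5 or more).

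The 10 genes, the lists and the libraries left out in pairs were chosen with earlier results of these data known. Named genes are the 10 genes, called genes of each list and up to 4 of each list by smallest p, and the 5 genes most like Ednra. A gene taken by this rule is not reported here. Marker lists are given as sums and counts, with a few of their genes named by the same rule or after their values were seen. The motifs were chosen for factors known to act on such genes. Alternatives were RLE and upper-quartile factors, DESeq2 1.42.0, limma 3.58.1 voom with quality weights, no filter, 1 CPM in 4 libraries, the unstranded column, a replicate block, an endothelial covariate and leaving out libraries.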

Additional observations from a re-analysis of the deposited data

Results flagged for a closer look

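In ROSA, Nppb stood high in 1 library, ROSA 2, at 12.4 CPM against 7.68 to 8.48 CPM in the other 3, and the gap to the nearest library was 0.830 of the range of the group. Of 72 groups of 4 libraries examined this way it was the only one past the 95% limit of Dixon's test, and chance flags about 1 in 20 groups.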

How the results depend on the processing

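Across 19 alternatives Ednra stayed called, with log2 fold changes of 2.00 to 2.93 and adjusted p of 6.5e-10 to 0.022, and Anpep, Nppb and Rgs16 also passed in all 19. Of the values of the 9 tested genes under these settings, 156 kept their direction and side of the threshold, 12 changed sign and 1, Ece1 with the endothelial covariate, came to pass, which made 2 genes called higher. The sign changes were those of Npr1 (-0.091 with the replicate block, -0.24 with voom), Ace (-0.0037 with voom), and, without ROSA 1 and ROSA 2, Edn1 (0.16) and Agtr1a (-0.32), beside Mme (0.31) and Furin (0.060). Without 1 library, ranges were -0.42 to 0.15 for Edn1, -0.016 to 0.52 for Agtr1a, -0.20 to 0.67 for Ace, -0.35 to 0.34 for Npr1, -0.020 to 0.11 for Npr3 and -0.12 to 0.013 for Furin.

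Counts over all genes without 1 library were 213 to 545 higher and 264 to 721 lower, lowest without ROSA 2. They were 64 and 108 without ROSA 1 and ROSA 2, 222 and 409 without BMPR2 DELX 3 and ROSA 3, and 1082 and 1186 with DESeq2. Calls among the 29 other pathway genes were 2 to 3 higher and 1 to 2 lower without 1 library. They were 4 higher with no filter, 1 higher without ROSA 1 and ROSA 2, and 4 lower with DESeq2. The lower calls were 1 with RLE or upper-quartile factors, the unstranded column, the replicate block, and without either pair of libraries. The cause was not tested.

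The labels number the libraries 1 to 4 in each group without saying that numbers pair them. Deviations of same-numbered libraries correlated at 0.0050, 0.21, 0.24 and 0.093, so the pairing was not taken as given, and not every library correlated best with its own number. The replicate block gave 563 higher and 682 lower genes, and 2.24 for Ednra. Depth limits Agt, Ednrb and Agtr2 most, and also the ROSA level of Ednra, which rests on 13 to 37 counts per library.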

Other observations

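The genes whose log2 CPM over the 8 libraries was most like that of Ednra, among 11707 genes with a mean of at least 1 CPM, were Ifi207, an interferon-inducible gene (Pearson r 0.97), the CaM kinase inhibitor Camk2n1 (0.97), the histone variant gene H2afv (0.97), the HMG-box gene Bbx (0.96) and Hnrnpul1 (0.96). These values are a description over 8 libraries that share the group difference, and no test was made. The differences themselves were smaller than that of Ednra, with log2 fold changes of 0.73 ± 0.18 for Ifi207, 0.63 ± 0.16 for Camk2n1, 0.39 ± 0.09 for H2afv, 0.26 ± 0.07 for Bbx and 0.19 ± 0.06 for Hnrnpul1. The last of these did not pass (edgeR adjusted p 0.059), and the other 4 lost the call in 6 or 7 of 8 fits without 1 library.

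Most of the mural and smooth muscle markers had negative changes, 10 of the 13 tested against 3 positive, with a median log2 fold change of -0.24. Among the 13, edgeR called 1 higher and 2 lower, and 10 missed the threshold. DESeq2 and limma voom each called 1 higher and 3 lower. Over all genes tested edgeR called 3.96% higher and 5.15% lower. Notch3, a receptor of mural cells, rose by 0.96 ± 0.25 (edgeR adjusted p 0.046), from 7.55 ± 2.46 to 14.7 ± 2.85 CPM. Cspg4, the NG2 proteoglycan, fell by 1.04 (SE 0.23, adjusted p 0.030) and the adhesion molecule Mcam by 0.77 (SE 0.15, adjusted p 0.019). Myocd, the smooth muscle coactivator, had a log2 fold change of -0.56 ± 0.17 (adjusted p 0.071). These 3 calls were lost in 3 to 6 of 8 fits without 1 library, and their part in the level of Ednra was not tested.

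Nppc, the gene of C-type natriuretic peptide, chosen after its values were seen, had 0 counts in all 4 ROSA libraries and at most 7 in a BMPR2 DELX library. The filter on low counts left it out of the main comparison, the edgeR fit with no filter called it higher (adjusted p 0.034), and DESeq2 gave it no adjusted p.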
